A study of Mus musculus with 6 samples.

Results

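Processed pseudogenes are copies of messenger RNAs that were written back into the genome by the reverse transcriptase of LINE-1 elements. They lack the introns and the promoter of the gene they were copied from, and most have since collected mutations. Old copies have drifted far from their parent gene, whereas young copies still match it almost base for base, so that a short read of the parent mRNA may align to either. Genes with abundant germline mRNA, such as those for ribosomal proteins, glyceraldehyde-3-phosphate dehydrogenase and cyclophilin A, have left the most copies in mammalian genomes.

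The processed pseudogenes described here are all rows of the deposited liver table with the Ensembl biotype processed_pseudogene or transcribed_processed_pseudogene, except Gm10319, which the selection left out. They are 7428 of 68997 rows and belong to 7023 Ensembl genes, with 7266 rows of the first biotype and 162 of the second. Total RNA was measured in livers of 6 wild-type C57BL/6 mice aged 10 weeks on chow, 3 given the adenovirus Ad-MAFG and 3 given Ad-CMV. Ad-MAFG carries Mafg cDNA, which encodes a small MAF transcription factor, behind a CMV promoter that is not restricted to one cell type, and Ad-CMV is the same vector without an insert. Both groups therefore carry adenovirus, and no group without virus was compared.

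The table holds 1 value per group, in FPKM (fragments scaled to transcript length and to the total of mapped fragments), and no value per mouse. No spread between mice, depth or p-value can be given for any difference, and every comparison below describes 2 pooled values. Differences are given as log2((Ad-MAFG + 0.1)/(Ad-CMV + 0.1)), called the log2 ratio, which understates differences between low values. Each row is 1 assembled transcript per numbered locus, so an abundant gene may be represented by a minor form of its RNA. Of 7 hepatocyte markers 6 had a row. Alb, the gene for serum albumin, was at 5603 FPKM in Ad-MAFG livers and 4310 FPKM in Ad-CMV livers (0.38), and Ttr, which encodes transthyretin, was listed below 0.3 FPKM in both groups. The other 4 were lower in Ad-MAFG livers, with log2 ratios of -1.27 for Apoa1, -1.10 for Serpina1a, -0.70 for Fgb and -0.44 for Apoc3. The stellate cell list (Col1a1, Col3a1, Dcn, Acta2) summed to 131 FPKM in Ad-MAFG livers and 68.6 FPKM in Ad-CMV livers. Col1a1 had a log2 ratio of 2.56, Col3a1 2.35, Acta2 1.44 and Dcn 0.01. The macrophage list summed to 71.6 FPKM in Ad-MAFG livers and 55.6 FPKM in Ad-CMV livers. Its members lay on either side of 0, with Lyz2 at 0.94, Cd68 at 0.47, Adgre1 at 0.29, Clec4f at -0.18 and Marco at -2.64. Whether these differences between the livers bear on the pseudogene values was not tested.

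The label was checked against sequence. Of 7026 member transcripts named by the table, 7003 were found in GENCODE M21 and 6866 matched a protein-coding transcript elsewhere in the genome on the sense strand, called the parent here. The annotation placed 7004 of them, and 6327 of these had a single exon, the structure that a copied mRNA leaves. The median identity to the parent was 89.7% over all rows with a match. No minimum identity or matched length was set, so a parent can be a distant or partial match. Gm17137, for example, matched Cers2 at 65.6% identity over 21.9% of its length. Among rows with a mean of 1 FPKM or more, the match covered at least 95% of the length in 158 of 188 on the pseudogene's own strand. On the opposite strand it did so in 214 of 227.

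The sequences that carry the main contrast are those of near-identical copies and of copies with more differences. All are from GENCODE M21 on GRCm38, written along the strand of the pseudogene. Capitals mark bases that differ from the aligned parent transcript or are inserted relative to it, and each copy printed aligned within the parent's coding sequence.
The first group holds copies that match a parent over their whole length with at most 1 difference. Rpl38-ps2 (chr6:140746960-140747172, minus strand) and Gm8129 (chr6:52346730-52346942, minus strand) are copies of Rpl38, and Gm12338 (chr11:75599763-75599954, minus strand) of Cox7c.
Rpl38-ps2: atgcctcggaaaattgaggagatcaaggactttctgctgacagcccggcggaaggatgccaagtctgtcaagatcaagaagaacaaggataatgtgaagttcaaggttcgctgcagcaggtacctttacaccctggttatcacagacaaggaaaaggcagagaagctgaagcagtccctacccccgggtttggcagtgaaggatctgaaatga
Gm8129: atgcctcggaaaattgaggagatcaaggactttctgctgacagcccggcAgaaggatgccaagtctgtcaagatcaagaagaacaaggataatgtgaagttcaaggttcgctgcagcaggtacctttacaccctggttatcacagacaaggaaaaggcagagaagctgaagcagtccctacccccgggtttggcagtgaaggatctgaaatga
Gm12338: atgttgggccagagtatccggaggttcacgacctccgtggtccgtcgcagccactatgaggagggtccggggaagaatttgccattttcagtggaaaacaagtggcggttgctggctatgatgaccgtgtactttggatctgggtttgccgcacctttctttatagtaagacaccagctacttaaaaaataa
The second group holds copies of thymosin beta 10 (Tmsb10), an actin-binding peptide, whose values lay on opposite sides of 0 between the groups. Gm3788 (chr3:86672033-86672168, minus strand) differs from Tmsb10 by 1 inserted base, and Gm44184 (chr6:122034504-122034635, minus strand) by 18 substitutions over the 128 aligned bases that are printed.
Gm3788: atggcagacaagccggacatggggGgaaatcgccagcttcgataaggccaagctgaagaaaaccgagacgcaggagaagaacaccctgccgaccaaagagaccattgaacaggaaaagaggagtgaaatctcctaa
Gm44184: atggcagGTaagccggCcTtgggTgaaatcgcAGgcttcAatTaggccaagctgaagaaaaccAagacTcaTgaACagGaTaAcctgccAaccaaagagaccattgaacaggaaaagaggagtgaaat
The third group shows copies with more differences, at 95.4%, 90.1% and 81.3% identity in the order printed. Of these, only the last lies below the median of 89.7% over all rows with a match. Gm12497 (chr3:107979632-107979868, plus strand), the row with the highest mean FPKM, differs from Romo1 by 11 substitutions. Mup-ps22 (chr11:55123695-55123937, plus strand) differs from Mup20, a major urinary protein gene, by 24. Gm43116 (chr3:131360556-131360750, plus strand), which lies in an intron of Sgms2, differs from Rps28 by 29 substitutions over the printed bases and lacks 9 further bases of the aligned parent.
Gm12497: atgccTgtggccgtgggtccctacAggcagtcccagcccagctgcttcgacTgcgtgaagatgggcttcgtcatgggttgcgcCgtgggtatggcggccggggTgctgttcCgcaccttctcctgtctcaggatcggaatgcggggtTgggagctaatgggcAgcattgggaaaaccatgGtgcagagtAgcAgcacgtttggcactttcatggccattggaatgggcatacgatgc
Mup-ps22: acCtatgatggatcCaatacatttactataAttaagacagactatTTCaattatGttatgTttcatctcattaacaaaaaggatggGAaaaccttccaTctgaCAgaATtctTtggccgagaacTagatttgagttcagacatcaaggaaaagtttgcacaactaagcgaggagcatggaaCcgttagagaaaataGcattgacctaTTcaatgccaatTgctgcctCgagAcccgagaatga
Gm43116: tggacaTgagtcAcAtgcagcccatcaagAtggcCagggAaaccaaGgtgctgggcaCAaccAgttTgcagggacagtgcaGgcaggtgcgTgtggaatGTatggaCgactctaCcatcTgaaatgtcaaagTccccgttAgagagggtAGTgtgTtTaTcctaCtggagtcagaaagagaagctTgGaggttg

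Most processed pseudogenes were not detected in either group. Of the 7428 rows, 5696 (76.7%) were listed at 0 in both groups, 723 had a mean under 0.1 FPKM and 594 a mean from 0.1 to under 1. A mean of 1 FPKM or more over both groups was reached by 415 rows (5.59%) from 411 genes, of which 350 lay under 10 FPKM. Only these 415 rows are compared between the groups below. Their selection by the mean of both groups passes over rows that were low throughout. The members summed to 4031 FPKM in Ad-MAFG livers and 4086 FPKM in Ad-CMV livers, and the 10 highest rows held 38.6% and 37.8% of these sums. Over all 7428 rows, 350 (4.71%) were above 0 in Ad-MAFG livers alone and 155 (2.09%) in Ad-CMV livers alone, beside 3.73% and 1.60% of all 68997 rows. Gm3788 was the single one of these with a mean of 1 FPKM or more.

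The assembled strand divided the 415 rows. On each chromosome the locus numbers first follow the plus strand and afterwards the minus strand, and the strand of a transcript was read from that order. Nearly every member gene has a row on its own strand, also where nothing was measured, whereas a row opposite to the annotated pseudogene is listed only where a transcript was assembled, and none of the 405 opposite-strand rows was at 0. Shares and levels of both kinds of row are therefore not comparable as such. A mean of 1 FPKM or more was reached by 227 opposite-strand rows and 188 own-strand rows. Of 391 genes with a row on each strand, which holds only genes with an assembled opposite-strand transcript, 295 had their own-strand row listed at 0 in both groups. Assembly on the opposite strand was not a property of pseudogenes alone. Of 7168 protein-coding genes with a mean of 1 FPKM or more, 71.0% had their highest row opposite to their annotation too. By the same measure the share was 54.7% of 411 processed pseudogenes and 35.4% of 189 lincRNA genes. The library kit was stranded, and whether a strand setting during assembly contributed to this was not tested. The strand label alone thus does not tell which strand the RNA at a position came from. Overlapping genes cannot be separated from a value named for a pseudogene.

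Rows of both kinds differed in likeness to the parent and in place. Opposite-strand rows at 1 FPKM or more had a median identity of 98.2% to the parent, and 115 of 227 had an identity of 98% or more. Own-strand rows at this level had a median identity of 90.2%, and 14 of 188 reached 98%. Another annotated gene, called the host, overlapped 164 of 188 (87.2%) of the own-strand pseudogenes and 32 of 225 (14.2%) of the opposite-strand ones, compared with 1892 of 7023 (26.9%) of all member genes. Among the 164 hosted own-strand pseudogenes, 161 (98.2%) had hosts on the opposite strand alone, while 61.5% of all hosted members did. At 10 FPKM or more stood 60 of the 227 opposite-strand rows and 5 of the 188 own-strand rows. The median lengths were 595 and 471 bases in the same order.

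The share of pseudogenes at a measurable level grew with likeness to the parent. Of genes with an identity under 85%, 64 of 2394 (2.67%) reached a mean of 1 FPKM in their highest row. This share was 2.59% from 85% to under 90%, 5.50% from 90% to under 95%, 11.2% from 95% to under 98% and 15.1% from 98% to under 100%. Of genes identical to the parent over the aligned part, 22 of 105 did so, 19 of them on the opposite strand. The own-strand share stayed between 1.55% and 3.85% in every class.

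**Figure D1:**
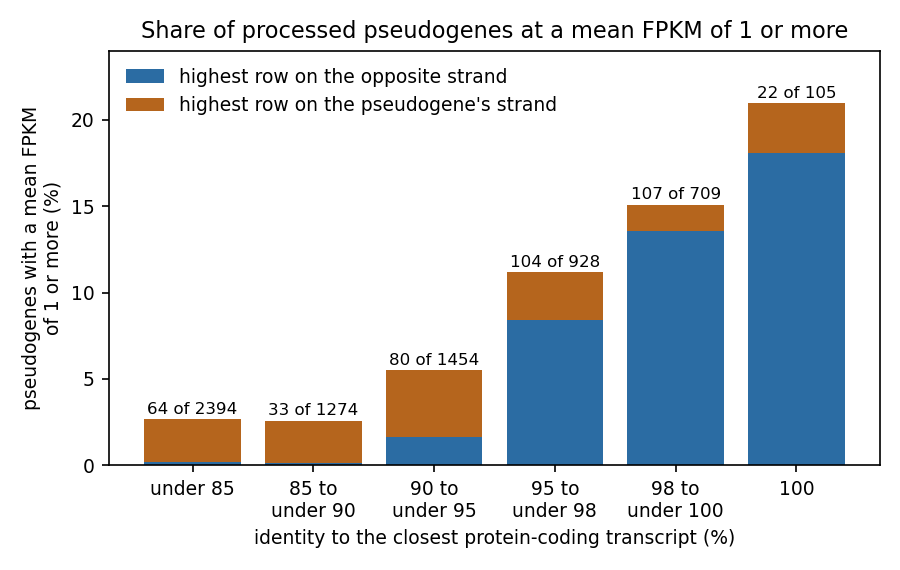
Share of processed pseudogenes (percent of genes in each class, vertical axis) whose highest row had a mean of 1 FPKM or more, by identity of the pseudogene to its closest protein-coding transcript (percent, horizontal axis), with the assembled strand in colour and counts above the bars. The share was 2.67% under 85% identity and 15.1% from 98% to under 100%, and the opposite-strand part makes up the increase.

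Between the groups most pseudogene rows differed little, like most rows of the table. Of the 415 rows, 10 (2.41%) were at least 2-fold higher and 12 (2.89%) at least 2-fold lower in Ad-MAFG livers, beside 4.13% and 4.87% of all 12514 rows of the table at that level. The median log2 ratio was -0.07 over the members and -0.06 over all rows, with 173 members above 0 and 242 below. Between the quartiles the members spanned -0.29 to 0.17 and all rows -0.30 to 0.19. Protein-coding rows, 10377 in number, had a median of -0.06 with 3.46% higher and 4.08% lower, and 198 lincRNA rows a median of -0.05 with 5.56% higher and 8.08% lower. The 227 opposite-strand members had a median of -0.11 and the 188 own-strand members one of -0.03. Levels, lengths and reads shared with other genes differ between these biotypes, and their part in the shares was not tested.

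**Figure D2:**
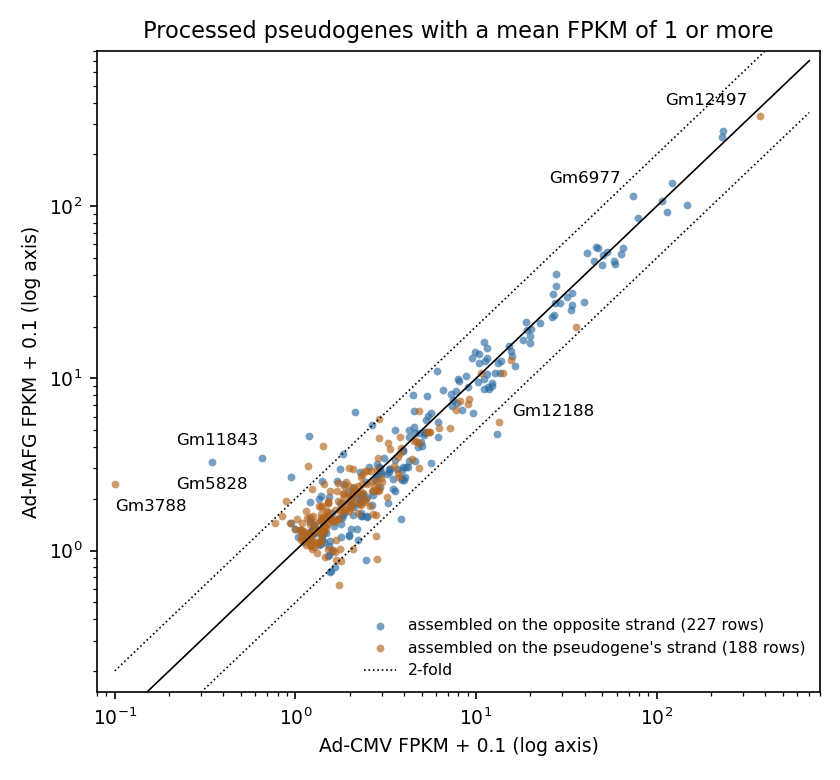
FPKM + 0.1 in Ad-MAFG livers (vertical log axis) against Ad-CMV livers (horizontal log axis) for the 415 processed pseudogene rows with a mean of 1 FPKM or more, 1 point per row, coloured by assembled strand. The solid line marks equal values and the dotted lines 2-fold differences, which 10 rows reach upward and 12 downward, none of them above 13.4 FPKM in either group.

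None of the 10 rows with the highest mean FPKM differed 2-fold between the groups. Gm12497 stood first, at 335 FPKM in Ad-MAFG livers and 374 FPKM in Ad-CMV livers (log2 ratio -0.16). It was the only one of the 10 on its own strand, and its assembled locus on chromosome 3 has the same coordinates as loci named for Gstm2 and Gstm3, glutathione S-transferase genes annotated on the opposite strand. The highest rows named for Gstm2 and Gstm3 had log2 ratios of 1.23 and 1.02, away from that of Gm12497. The Gstm2 row lay on the strand of the Gm12497 row and the Gstm3 row on the other strand. Another Gstm2 row, below 0.1 FPKM in both groups, had -0.62, and Gstm1 had no row to compare. Whether RNA of these genes entered the value of Gm12497 was not tested. Romo1, the parent by sequence, which encodes a small mitochondrial membrane protein, was at 15.1 FPKM in Ad-MAFG livers and 16.8 FPKM in Ad-CMV livers (-0.15).

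Copies of ribosomal protein mRNAs took 4 of the 10 highest places. Gm14303, a copy of Rps29, was at 275 FPKM in Ad-MAFG livers and 233 FPKM in Ad-CMV livers (0.24), and Rps29 itself at 198 and 183 FPKM in the same order (0.11). Rpl38-ps2, identical to Rpl38, had 137 FPKM in Ad-MAFG livers and 122 FPKM in Ad-CMV livers (0.17). Gm8129, which differs from it by the 1 capital letter above, had 34.2 FPKM in Ad-MAFG livers and 27.6 FPKM in Ad-CMV livers (0.31), and Rpl38 had a log2 ratio of 0.29. Reads from within an identical copy cannot be told apart from those of its parent, so the split of FPKM between them rests on the quantification and both levels are uncertain.

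Other abundant copies lay on either side of 0. Tpt1-ps3, a copy of the translationally controlled tumour protein mRNA, was at 251 FPKM in Ad-MAFG livers and 230 FPKM in Ad-CMV livers (0.12). The listed row of its parent Tpt1, at 0.275 and 0.532 FPKM in the same order, had -0.75. Gm9794, a copy of Rpl23, was at 107 FPKM in both groups. Gm12338, identical to the coding sequence of Cox7c, a cytochrome c oxidase subunit, was at 91.9 FPKM in Ad-MAFG livers and 115 FPKM in Ad-CMV livers (-0.32). The listed Cox7c row had -0.24 but was far lower, at 2.76 FPKM in Ad-MAFG livers and 3.29 FPKM in Ad-CMV livers. Gstm2-ps1, closest to Gstm1 at 97.9% identity, was at 102 FPKM in Ad-MAFG livers and 147 FPKM in Ad-CMV livers (-0.52). Gm4332, a copy of Rps20, had a log2 ratio of 0.12 and Gm12231, a copy of the ATP synthase subunit gene Atp5f1, one of -0.20.

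Gm6977, a copy of ferritin heavy chain (Fth1), which stores iron, had the highest log2 ratio of the 10, at 115 FPKM in Ad-MAFG livers and 73.8 FPKM in Ad-CMV livers (0.64). Fth1 was at 340 FPKM in Ad-MAFG livers and 226 FPKM in Ad-CMV livers (0.59), although Gm6977 shares only 90.5% of its aligned bases. Gm7541, the other ferritin copy, lay on the other side of 0. It was on its own strand, had 91.0% identity to a ferritin light chain sequence, and was at 19.9 FPKM in Ad-MAFG livers and 35.6 FPKM in Ad-CMV livers (-0.84).

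The 10 rows with the highest log2 ratio reached at most 6.28 FPKM in Ad-MAFG livers. Gm3788, the near-identical copy of Tmsb10, was at 2.33 FPKM in Ad-MAFG livers and listed at 0 in Ad-CMV livers, so no fold is given. Tmsb10 was at 17.9 FPKM in Ad-MAFG livers and 8.50 FPKM in Ad-CMV livers (1.07). Gm3788 lies in an intron of Lrba on the other strand, and the Lrba row was below 1 FPKM, at 0.529 FPKM in Ad-MAFG livers and 0.232 FPKM in Ad-CMV livers. Gm44184, the diverged Tmsb10 copy, was at 1.12 FPKM in Ad-MAFG livers and 2.69 FPKM in Ad-CMV livers (-1.20). Its direction matched neither Tmsb10 nor Mug2, the murinoglobulin gene that hosts it, which was at 79.1 FPKM in Ad-MAFG livers and 69.1 FPKM in Ad-CMV livers (0.19).

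Some of the other rows with high log2 ratios lay on the other side of 0 from their listed parent rows. Gm5828, 96.5% identical to Tox4, was at 3.19 FPKM in Ad-MAFG livers and 0.246 FPKM in Ad-CMV livers (3.25). The Tox4 row was listed at 0 in both groups and offers no level to compare. Gm11843, a copy of the ubiquitin-conjugating enzyme variant Ube2v2, was at 3.36 FPKM in Ad-MAFG livers and 0.555 FPKM in Ad-CMV livers (2.40). The listed Ube2v2 row was at 2.30 and 2.90 FPKM in the same order (-0.32). Gm13082, a copy of the small GTPase gene Rab6a, was at 4.51 FPKM in Ad-MAFG livers and 1.09 FPKM in Ad-CMV livers (1.95). The listed Rab6a row was at 1.66 and 2.19 FPKM in the same order (-0.38). Tubb4b-ps2 lay on the same side as its parent, the beta-tubulin gene Tubb4b. The copy was at 6.28 FPKM in Ad-MAFG livers and 2.04 FPKM in Ad-CMV livers (1.57), and Tubb4b at 13.6 and 6.83 FPKM in the same order (0.98).

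The remaining 5 of these 10 rows were Gm16285, Gm35106, Gm17147, Gm10653 and Gm42642, with log2 ratios from 1.02 to 1.52. Gm16285 and Gm17147 lie in Tc2n and Hpgds on the other strand, and both host rows were below 0.01 FPKM, so the hosts offer no level to compare. Gm10653, the single transcribed processed pseudogene past 2-fold, was at 1.83 FPKM in Ad-MAFG livers and 0.782 FPKM in Ad-CMV livers (1.13). It overlaps exons of Calml4, at 0.789 FPKM in Ad-MAFG livers and 0.296 FPKM in Ad-CMV livers (1.16), and of Cln6, whose row was near 0.02 FPKM in both groups (-0.02).

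Mup-ps22, among the 10 rows with the lowest log2 ratio, was at 0.783 FPKM in Ad-MAFG livers and 2.35 FPKM in Ad-CMV livers (-1.47). Mup20, which encodes a urinary pheromone protein made by hepatocytes, was at 1135 FPKM in Ad-MAFG livers and 3935 FPKM in Ad-CMV livers (-1.79). Glns-ps1, a copy of the glutamine synthetase gene Glul, was at 1.42 FPKM in Ad-MAFG livers and 3.75 FPKM in Ad-CMV livers (-1.34). The listed row of Glul was a minor form below 0.3 FPKM in both groups, so its level cannot be set beside the copy.

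Gm12250 was lower in Ad-MAFG than in Ad-CMV livers on both strands. Its opposite-strand row was at 4.63 FPKM in Ad-MAFG livers and 12.9 FPKM in Ad-CMV livers (-1.46), and its own-strand row at 0.793 and 2.74 FPKM in the same order (-1.67). Its closest match, Gm5431, shared only 68.5% of bases. Gm12188, in an intron of Olfr56 and 85.3% identical to the translation repressor gene Eif4ebp1, was at 5.49 FPKM in Ad-MAFG livers and 13.4 FPKM in Ad-CMV livers (-1.27), and Eif4ebp1 had a log2 ratio of 0.36. Gm11763, Gm7389, Gm5841 and Gm12275 completed these 10 rows, each under 1 FPKM in Ad-MAFG livers. Kat2b-ps and Gm16260, with log2 ratios of -1.04 and -1.02, were the other rows past 2-fold.

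**Figure D3:**
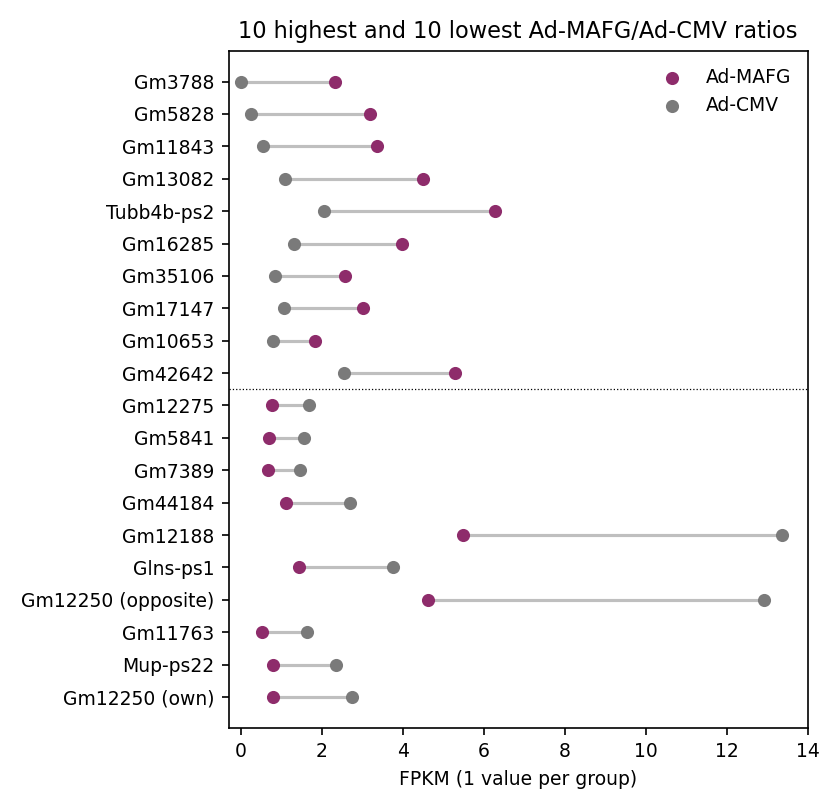
FPKM (horizontal axis, 1 pooled value per group) of the 10 processed pseudogene rows with the highest log2 ratio (above the dotted line) and the 10 with the lowest (below it), with Ad-MAFG and Ad-CMV values joined by a bar. Gm12250 appears with its own-strand and its opposite-strand row, and Gm3788 was listed at 0 in Ad-CMV livers.

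Pseudogenes were next set beside their parents. Of 414 rows with a parent by sequence, 285 had a parent row at a mean of 1 FPKM or more, and 188 of these pairs (66.0%, exact binomial 95% interval 60.1 to 71.4%, counting error only) lay on the same side of 0. The share was 73.8% for 172 opposite-strand rows and 54.0% for 113 own-strand rows. Among opposite-strand rows it was 56.5% of 23 pairs under 95% identity, 69.7% of 66 pairs from 95% to under 98%, and 81.9% of 83 pairs at 98% or more. Spearman's rho over those 3 classes was 0.22, 0.43 and 0.69. Own-strand rows showed no such order, with 56.1% of 82 pairs under 95% identity (rho -0.05), 45.5% of 22 pairs from 95% to under 98% (0.17) and 55.6% of 9 pairs at 98% or more (0.12). These are descriptions across pairs that share 2 group values and, among close copies, the reads themselves, and pairs of 1 parent are not independent.

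**Figure D4:**
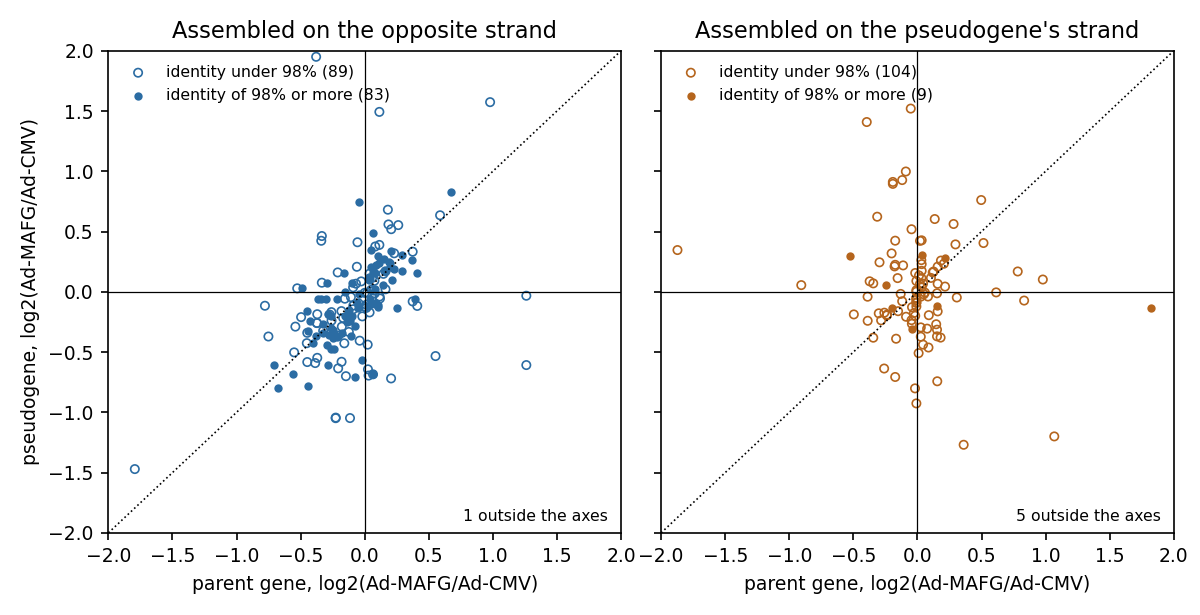
Log2 ratio of Ad-MAFG over Ad-CMV FPKM for each pseudogene row (vertical axis) against that of its parent gene (horizontal axis), for opposite-strand rows (left, 172 pairs) and own-strand rows (right, 113 pairs), with filled points at 98% identity or more and a dotted line of equal ratios. The 83 filled points on the left gather along the line, and 1 pair on the left and 5 on the right lie outside the axes.

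Gm8566, a copy of superoxide dismutase 1 (Sod1), was at 27.7 FPKM in Ad-MAFG livers and 39.3 FPKM in Ad-CMV livers (-0.50), and Sod1 at 227 and 332 FPKM in the same order (-0.55). Gm16089, a copy of the complex III subunit gene Uqcrb, had -0.34 and Uqcrb -0.45. The 5 pairs that differed most were of another kind. Gm15613 lay at 0.03 while its parent row, Hcfc1r1, was effectively at 0 in Ad-MAFG livers and at 4.58 FPKM in Ad-CMV livers. Gm15531, Gm4525 and Gm19244, own-strand copies of Rps27, had log2 ratios of 0.42, -0.23 and -0.35, and the listed Rps27 row, a form below 3 FPKM, one of -4.12. Gm3788 and Tmsb10 made up the remaining pair.

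Pseudogenes inside another gene were set beside the host. The 415 rows formed 201 pairs with a host, of which 166 joined an own-strand row to a host on the opposite strand and 177 placed the pseudogene in an intron. In 102 pairs the host row also reached a mean of 1 FPKM, and 73 of these (71.6%, exact binomial 95% interval 61.8 to 80.1%, counting error only) had both log2 ratios on the same side of 0. Spearman's rho was 0.53, across pairs that share the 2 group values and the assembled locus or its neighbourhood. The median absolute difference between pseudogene and host was 0.15 on the log2 scale. The 94 hosts, counted once each, gave 71.3%.

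Named pairs covered both directions. Gm8818 in Lamc1, which encodes a laminin chain of the basement membrane, was at 1.35 FPKM in Ad-MAFG livers and 0.671 FPKM in Ad-CMV livers (0.91), and Lamc1 at 6.40 and 2.83 FPKM in the same order (1.15). Gm43116, the diverged Rps28 copy printed above, was at 0.919 FPKM in Ad-MAFG livers and 1.66 FPKM in Ad-CMV livers (-0.79). Its host Sgms2, a sphingomyelin synthase gene, was at 12.4 and 19.4 FPKM in the same order (-0.64). Gm16177, a copy of Gapdh, lay at -0.69 within Lonp2, a peroxisomal protease gene, at -0.41.

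The pairs that differed most included Gm44184 and Mug2, described above, and Gm17194 at 0.07 within Vti1b at -1.50. Gm17022 lay at -0.15 within Pcid2 at -1.37, Gm14048 at -0.64 within 4930402H24Rik at 0.47, and Gm12837 at 0.62 within Cyp4a12b, a fatty acid hydroxylase gene, at -0.47. These 5 pairs belonged to own-strand rows with hosts on the other strand. The listed rows of Mug2, Vti1b and Pcid2 lay on the annotated strand of those genes, opposite to the pseudogene row, and those of 4930402H24Rik and Cyp4a12b on the strand of the pseudogene row.

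**Figure D5:**
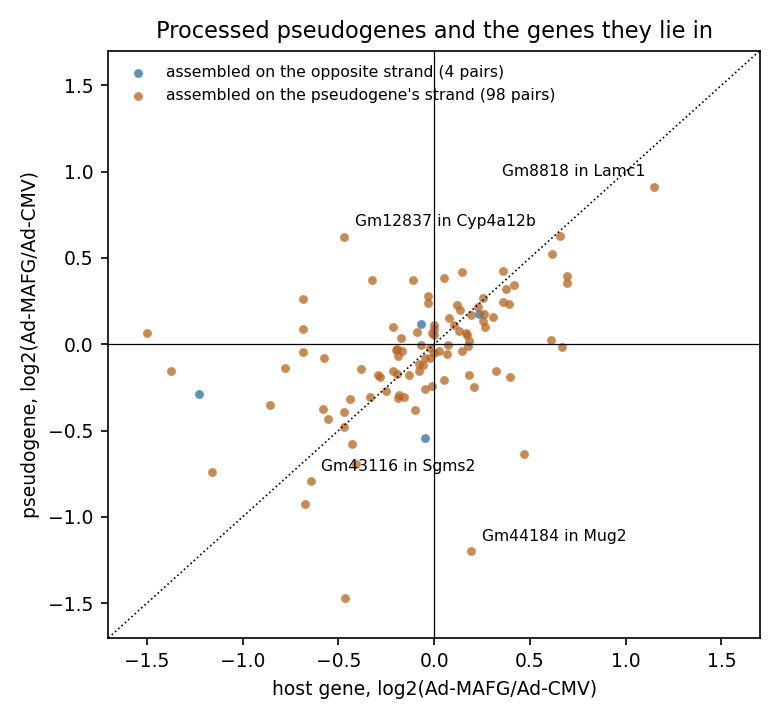
Log2 ratio of Ad-MAFG over Ad-CMV FPKM for each pseudogene row (vertical axis) against that of the gene it overlaps (horizontal axis), for the 102 pairs with both rows at a mean of 1 FPKM or more, coloured by assembled strand, with a dotted line of equal ratios. Points in the upper right and lower left are the 73 pairs on the same side of 0.

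Grouped by the function of the parent, the families had medians on either side of 0. By symbol alone, 20 ribosomal protein rows had a median log2 ratio of 0.09, with 15 above 0 and 5 below, and none past 2-fold. The 4 translation factor rows had a median of -0.15 and the 3 chaperone rows one of -0.14. Only 32 rows could be placed by symbol, because most members carry predicted gene names. Krt8-ps, a copy of the hepatocyte keratin gene Krt8, was at 10.97 FPKM in Ad-MAFG livers and 5.95 FPKM in Ad-CMV livers (0.87). Eif4a-ps4, Uqcrh-ps1 and Dnajc19-ps, the highest rows of their families, had log2 ratios of -0.11, -0.12 and -0.48. The listed rows of their parents Eif4a1, Uqcrh and Dnajc19 had 0.30, -0.78 and -0.27, that of Eif4a1 below 0.1 FPKM in both groups.

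Placed by the sequence of the parent, 212 rows fell in a family and the other 203 had a median log2 ratio of -0.12. The 117 ribosomal protein rows had a median of 0.02, with 62 above 0 and 55 below, 2 of them at least 2-fold higher and 1 at least 2-fold lower in Ad-MAFG livers. Respiratory chain copies lay lower, with a median of -0.29 over 23 rows and 17 below 0, none past 2-fold. They summed to 325 FPKM in Ad-MAFG livers and 396 FPKM in Ad-CMV livers. Gm11966, a copy of Atp5j, was at 25.03 FPKM in Ad-MAFG livers and 33.6 FPKM in Ad-CMV livers (-0.42), and the 6 rows above 0 were own-strand rows with means from 1.04 to 1.60 FPKM.

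Copies of glycolytic genes had a median of -0.13 over 10 rows, of which 8 were own-strand rows within another gene and 7 were copies of Gapdh. Proteasome and ubiquitin copies had a median of -0.26 over 11 rows, with Gm11843 as the one past 2-fold. Antioxidant enzyme copies split evenly, with 3 of 6 above 0. Gm21399, a copy of peroxiredoxin 1 (Prdx1), was at 40.0 FPKM in Ad-MAFG livers and 27.5 FPKM in Ad-CMV livers (0.54), and Tdpx-ps1, closest to Prdx2, had 0.56. Gm8566 and Gstm2-ps1, given above, lay below 0. The 2 chaperone copies by sequence, Dnajc19-ps and Gm6368, had a median of -0.71. Cytoskeletal copies spread most widely, from Gm44184 at -1.20 to Gm3788, with a median of 0.14 over 8 rows.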

How the data were processed

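Total RNA of 6 livers (3 per group, taken from the sample titles) was depleted of ribosomal RNA and sequenced as stranded paired-end libraries. The authors trimmed reads, removed ribosomal reads with Bowtie2 2.2.9, aligned with STAR 2.6.0c to mm10 (GRCm38), assembled transcripts with Cufflinks 2.2.1 and compared groups with Cuffdiff, then joined Ensembl biotypes. The FPKM values deposited by the authors are 1 value per group over its replicates, with 0 columns per mouse, so depth per sample is unknown. Columns of the authors' own comparison (fold change, test score, p and q) were not used.

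The strand of each transcript was inferred from the order of locus numbers. Log2 ratios used a pseudocount of 0.1 FPKM and rows with a mean of 1 FPKM or more, and 2-fold marks the rows counted. Background shares are over all rows at that level. Parents were the best sense matches of blastn 2.17.0 (word size 11, e-value 1e-10) to protein-coding GENCODE M21 transcripts outside the pseudogene. They had no minimum identity or matched length. Hosts were other annotated genes, not pseudogenes, that overlap its deposited start and end. Parents and hosts were represented by their row with the highest mean. Counting was tested on simulated data. Named rows were the 10 highest and 10 lowest log2 ratios, the 10 highest means, the 5 most different host and parent pairs, and the highest row of each family by symbol; other named rows, and the parents by sequence, were chosen after values were seen. Members and lists were chosen with earlier results of these data known. Analyses used Python 3.11.15, pandas 2.3.3 and scipy 1.17.1.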

Additional observations from a re-analysis of the deposited data

How the results depend on the processing

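The counts of rows past 2-fold depended on how rows were chosen, while the median log2 ratio stayed near 0. The counts were 10 higher and 12 lower in Ad-MAFG livers of 415 rows. They were 6 and 3 with a pseudocount of 1. A minimum mean of 0.1 FPKM gave 60 and 54 of 1009 rows, and a minimum of 5 FPKM gave 0 and 2 of 100. Over the 1732 rows above 0 in either group they were 90 and 66, and the median log2 ratio was 0.064 instead of -0.073. For the pseudocount of 1 and for the rows above 0, no share over all rows was computed. At a minimum of 0.1 FPKM all rows of the table gave 10.2% higher and 6.92% lower, beside 5.95% and 5.35% of the members. At a minimum of 5 FPKM all rows gave 4.31% and 8.12%. The counts were 27 and 39 at 1.5-fold (all rows, 9.29% and 11.8%) and 3 and 0 at 4-fold (all rows, 1.25% and 1.10%). At 2-fold they were 1 and 0 of 12 transcribed processed pseudogenes, 4 and 6 of 188 own-strand rows, and 6 and 6 of 227 opposite-strand rows. Members that overlap no other gene gave 6 and 8 of 219 rows. At these settings 4.13% of all rows were higher and 4.87% lower. With fewer rows these counts fall by construction. The share of host pairs on the same side was 100% over the 3 pairs with a host on the strand of the pseudogene. The share of parent pairs on the same side, an analysis added after the data were seen, was 75.5% at a minimum of 5 FPKM, 54.0% for own-strand rows and 73.8% for opposite-strand rows. No host pair had both rows at 5 FPKM or more. No paired analysis was possible because the table holds 1 value per group, and no mouse could be left out.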
